A study of Rattus norvegicus with 22 samples.

Results

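Tempol given after spinal cord contusion was compared with no tempol, with BSO treatment taken into account, in 11 of the series' 22 Affymetrix rat arrays. The arrays were chosen from their labels, as 6 from rats given tempol and 5 from rats given none. The 6 comprise 3 arrays of the group tempol (contusion and tempol) and 3 of the group tempol&BSO (contusion, tempol and BSO). The 5 comprise 2 arrays of the group contusion (contusion alone) and 3 of the group BSO (contusion and BSO). All 4 groups carry the same injury, made by dropping a 10 g weight with a 2.5 mm tip from 25 mm onto the cord at thoracic level 10, and the cord was taken 24 h later. Tempol was injected into the abdomen at 275 mg/kg, 20 min after the injury, and BSO (buthionine sulfoximine) at 150 mg/kg, 24 h before it. Strain, sex, age, any vehicle injection in the contusion group and whether each array is a separate animal are not stated in any source used here. The p-values therefore reflect only how much these arrays vary, which may be technical.

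Tempol is a small, cell-permeable nitroxide that takes part in redox cycles and breaks down superoxide, as superoxide dismutase does. BSO blocks glutamate-cysteine ligase, the enzyme of the first step in glutathione synthesis, and so lowers the tissue's glutathione. In a contused cord, blood, torn axons and arriving leukocytes produce superoxide, peroxide and free iron, which glia and neurons meet with glutathione, peroxidases and genes switched on by the transcription factor NRF2. The comparison asks which transcripts differ with tempol whether or not glutathione synthesis was blocked, and how far such a difference can be read from these arrays.

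The deposited signal of each probe set, the group of short probes that reads 1 transcript, was compared on the log2 scale for 31042 probe sets, controls left out. The arrays hold cord tissue by its defining transcripts. The myelin gene Mbp ranked at the 100th percentile of probe sets and the astrocyte filament gene Gfap at the 99.9th or above in all 11 arrays, and the synaptic gene Snap25 at the 93.3th or above. Slc1a2, a glutamate transporter gene also fixed as an astrocyte marker, ran from the 4.79th to the 90.3th percentile. Of the muscle genes, Acta1 stayed between the 4.73th and the 33.4th percentile, whereas Ckm ran from the 57.4th to the 85.8th. The median rank correlation of an array with the other 10 lay between 0.728 (tempol&BSO 1) and 0.783 (contusion 1). Arrays of 1 group were no more alike (median rank correlation 0.747) than arrays with and without tempol (0.765). The RNA end ratios of GAPDH, actin and hexokinase, the hybridization spikes and the median signal had two-sided exact permutation p of 0.695, 0.418, 0.433, 0.714 and 0.937 between the 6 and the 5 arrays, the lowest Benjamini-Hochberg value being 0.892. The 3' to 5' log2 ratio averaged 0.41 in the 6 tempol arrays and 0.47 in the other 5 for GAPDH, 0.38 and 0.20 for actin, and −0.68 and 0.35 for hexokinase. The mean log2 spike signal split the arrays within every group. It was 10.94 in tempol 1, 11.1 in tempol&BSO 3, 11.12 in contusion 1 and 10.9 in BSO 1. In the remaining arrays it ran from 12.01 to 13.01. No alternative used the spike signal as a covariate, and its part in the results was not tested.

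No transcript passed the test for a difference with tempol. In a limma fit with tempol and BSO as terms, 0 of 31042 probe sets passed an adjusted p of 0.05 (Benjamini-Hochberg over all probe sets, 0% called), and the smallest adjusted p was 0.477. At unadjusted p under 0.05 there were 1157 probe sets (3.73%), 620 higher (2%) and 537 lower (1.73%) with tempol. On average 1552.1 would be found if none differed, and dependence between probe sets widens the spread around that count. The median effect over all probe sets was 0.003 on the log2 scale, and 50.2% of the probe sets had an effect above 0. In 77 probe sets (0.248%) the 6 and the 5 arrays did not overlap, 39 with all tempol arrays above (0.126%) and 38 with all below (0.122%).

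A p that misses the threshold does not show equality, so the intervals are given. The median standard error of the tempol effect was 0.471 and the median 95% confidence interval reached 1.02 to either side, about a doubling or halving of the signal. Among probe sets with a mean log2 signal of 7.16 or more it reached 0.852. Only 6875 probe sets (22.1%) had an interval lying wholly between −1 and 1. For the remaining probe sets a change of at least 1 on the log2 scale in some direction lay within the interval.

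**Figure D1:**
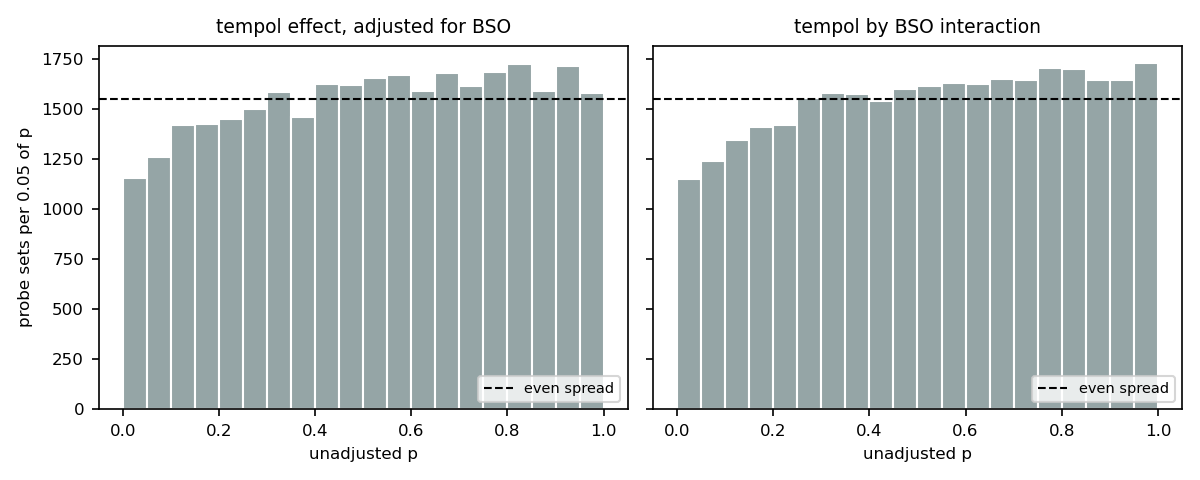
Histograms of the unadjusted p of 31042 probe sets for the tempol effect adjusted for BSO (left) and for the tempol by BSO interaction (right), in steps of 0.05; the dashed line is an even spread. With p rounded to 3 digits, the lowest step holds 1156 probe sets on the left and 1151 on the right, below the line in both panels.

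The tempol difference in rats without BSO and that in rats with BSO rest on separate arrays and can be set side by side. Tempol minus contusion had 0 probe sets past an adjusted p of 0.05 by limma and 947 at unadjusted p under 0.05 (3.05%; 1.71% higher and 1.34% lower). Tempol&BSO minus BSO also had 0, with 1357 at unadjusted p under 0.05 (4.37%; 2.24% higher and 2.14% lower). Across the 31042 probe sets, which are not independent, the Pearson correlation of these differences was −0.00925, and 15295 probe sets (49.3%) had the same sign in both. Of the 100 probe sets with the smallest p without BSO, 58 had the same sign with BSO, and of the 100 with the smallest p with BSO, 52 had the same sign without it. Unadjusted p was under 0.05 in both for 103 probe sets, where 41.4 would be found if the p-values were independent, and 49 of the 103 had the same sign. Both differences come from a single fit that shares 1 residual SD per probe set, so a low SD makes both p small together.

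**Figure D2:**
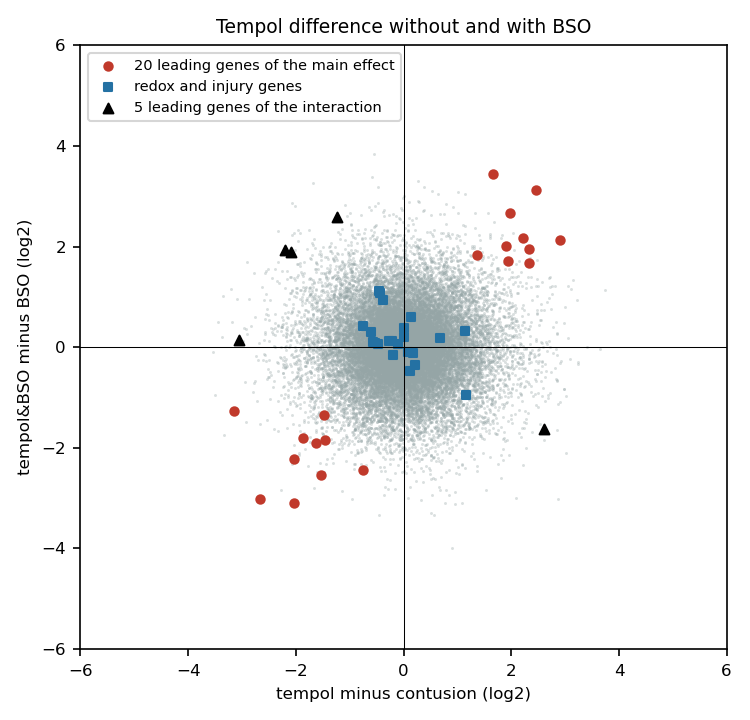
Each grey point is 1 of 31042 probe sets, with tempol minus contusion on the x axis and tempol&BSO minus BSO on the y axis (both log2). The cloud has no slope (Pearson r −0.00925); red points are the 20 leading genes of the joint effect, blue squares the redox and injury genes, black triangles the leading genes of the interaction.

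The genes closest to the chemistry of tempol and BSO were examined first. A set of 22 redox and injury genes had effects from −0.215 (Sod3) to 0.690 (Nefl), every 95% interval held 0, and 6 of the 22 had the same sign without and with BSO. For 8 of them the interval lay wholly within −1 and 1.

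Hmox1 makes heme oxygenase, which opens the heme ring and is a classic answer to blood in the tissue. Its signal was 1343.8, 1308.1 and 1611.1 in tempol, and 1389.1, 1809.4 and 2003.7 in tempol&BSO. It was 2058 and 1877.4 in contusion, and 1550.6, 1669.7 and 1697.7 in BSO. The arrays with and without tempol overlapped, and all 11 lay above the 6 uninjured arrays (120.1 to 724.4). The tempol effect was −0.17 ± 0.28 (log2, SE, 95% interval −0.78 to 0.43), so a change in Hmox1 of a factor of 2 in either direction lay outside the interval.

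Among the superoxide and peroxide enzymes, the dismutase genes Sod1 (0.42, interval −1.01 to 1.84) and Sod2 (0.36, −0.88 to 1.60) were poorly bounded. Sod1, the cytosolic copper-zinc enzyme, read 50.5 in BSO 1 against 336.7 to 790.2 in the other 10 arrays. The effect of Cat, which turns peroxide into water and oxygen, was −0.20 (−0.91 to 0.51), and that of the glutathione peroxidase gene Gpx1 0.40 (−0.27 to 1.06). Of the 19 measured genes of the superoxide, peroxide and thioredoxin list 7 lay above 0, with a median of −0.05, and 0 had unadjusted p under 0.05, against 3.08% of all 14217 genes. Its smallest p belonged to Txnip, whose product binds and inhibits thioredoxin (−0.52 ± 0.51), and to the peroxiredoxin gene Prdx5 (−0.31 ± 0.31).

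Glutathione genes showed no common direction. Gclc and Gclm, the catalytic and modifier subunits of the ligase that BSO blocks, had effects of 0.02 ± 0.32 and −0.18 ± 0.50. For Gss, which completes the tripeptide, it was 0.22 ± 0.36, and for Gsr, which reduces oxidized glutathione, 0.41 ± 0.63. Of the list's 25 genes 16 lay above 0 (median 0.07), and 1 of the 25 had unadjusted p under 0.05, near the 3.08% of all genes. That gene was Gstm1, a glutathione transferase. Gstm1 read 180.9, 402 and 75.7 in tempol and 84.5, 133.6 and 187.4 in tempol&BSO. It read 295.9 and 315.6 in contusion, and 639.2, 450.3 and 349.5 in BSO. Of the 6 tempol arrays only tempol 2 reached into the range of the other 5, and the effect was −1.38 ± 0.46 (adjusted p = 1 by limma). Ggt5, a glutathione-cleaving transpeptidase gene, had 0.79 ± 0.42 without reaching p of 0.05.

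The NRF2 target list had 5 of 16 measured genes above 0 (median −0.07), with none at unadjusted p under 0.05 by limma. Nqo1, the quinone reductase gene most often read as its marker, had −0.05 ± 0.30 (interval −0.71 to 0.61), and the thioredoxin reductase gene Txnrd1 −0.02 ± 0.31 (−0.70 to 0.65). The sulfiredoxin gene Srxn1 (0.40 ± 0.70) ran from 362.4 to 3655.9 over the 11 arrays and was the least certain of them. The aldehyde oxidase gene Aox1 (−1.23 ± 0.63) and the pentose phosphate enzyme gene Taldo1 (−0.29 ± 0.39) had the smallest p of the list. NRF2 binds the antioxidant response element, whose core was searched as TGACNNNGC on both strands of the window from 250 bases before to 50 bases after each gene's start (RefSeq, GRCr8). It occurred in 2 of the 15 NRF2 target promoters available (13.3%) and in 12.1% of all 33469 promoters of that length. Sites outside this window were not searched, and Hmox1 had no promoter sequence to search. The 2 matches, in capitals below, are shown because these genes stand at the meeting point of NRF2, glutathione and NADPH supply: Gclm (chr2:213031885-213032184, plus strand, match starting 172 bases before the start) and Me1, the malic enzyme gene that yields NADPH (chr8:96540195-96540494, minus strand, 167 bases before the start).
Gclm: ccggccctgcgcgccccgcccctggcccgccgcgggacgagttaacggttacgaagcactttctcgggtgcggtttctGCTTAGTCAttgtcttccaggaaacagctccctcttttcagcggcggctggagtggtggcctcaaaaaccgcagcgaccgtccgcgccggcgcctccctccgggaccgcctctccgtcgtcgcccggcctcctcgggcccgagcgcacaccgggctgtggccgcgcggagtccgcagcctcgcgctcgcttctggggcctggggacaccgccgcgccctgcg
Me1: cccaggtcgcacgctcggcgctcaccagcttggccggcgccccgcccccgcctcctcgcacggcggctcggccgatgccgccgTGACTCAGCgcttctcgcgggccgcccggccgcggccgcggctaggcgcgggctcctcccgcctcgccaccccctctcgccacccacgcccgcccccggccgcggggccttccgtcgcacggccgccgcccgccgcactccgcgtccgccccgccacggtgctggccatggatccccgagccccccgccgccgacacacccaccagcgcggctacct
With tempol, Gclm had −0.18 ± 0.50 (interval −1.28 to 0.91) and Me1 −0.34 ± 0.54 (−1.52 to 0.84). The median effect was −0.264 for these 2 and −0.051 for the 13 without a match, and no difference is read from so few genes.

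**Figure D3:**
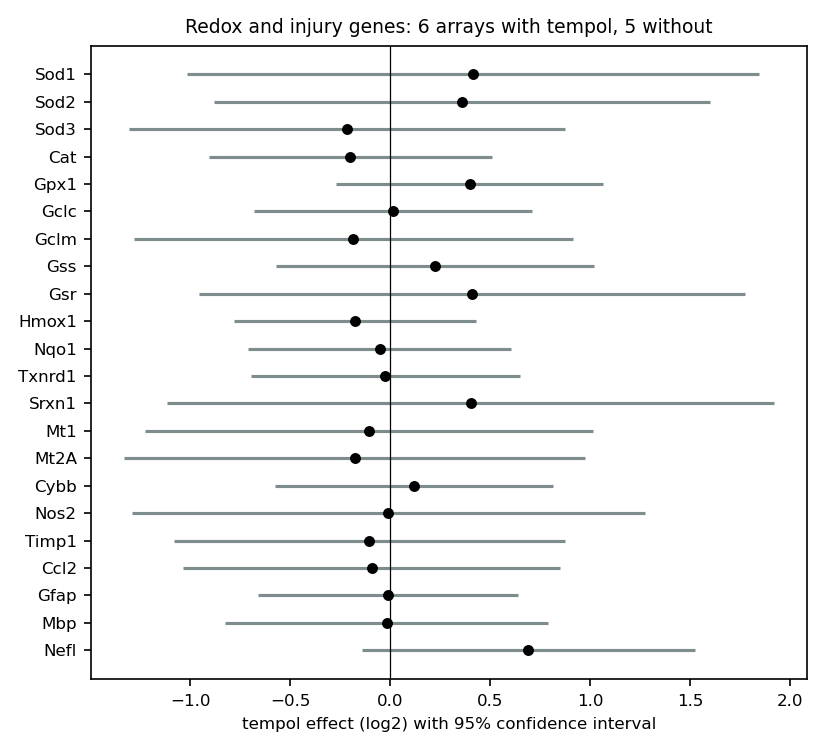
Tempol effect (points, log2, adjusted for BSO) with its 95% confidence interval (lines) for 22 redox and injury genes, from 6 arrays with tempol and 5 without. Every interval crosses 0; the point farthest from it is Nefl at 0.690.

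Among the sources of superoxide and the genes of iron handling none passed the adjusted p. The NADPH oxidase and nitric oxide synthase list had 5 of 10 genes above 0 (median 0.01), with the phagocyte oxidase subunit gene Cybb at 0.12 ± 0.32 and inducible Nos2 at −0.01 ± 0.59. Its smallest p belonged to Nox4 (−1.09 ± 0.67) and to the oxidase organizer gene Ncf1 (−0.71 ± 0.50). Metallothioneins, which hold zinc and copper and scavenge radicals, had 1 of 6 list genes above 0. Their effects were −0.10 ± 0.51 for Mt1, −0.18 ± 0.53 for Mt2A and −0.20 ± 0.66 for Mt3. The list median was 0.27 without BSO and −0.36 with it. In the iron, heme and red cell list 6 of 15 genes lay above 0 (median −0.11), and 2 of the 15 had unadjusted p under 0.05, beside 3.08% of all genes. Cp makes ceruloplasmin, the copper oxidase that loads iron onto transferrin. It read 73.8, 436.6 and 745 in tempol and 814, 95.7 and 88.3 in tempol&BSO, against 942.9 and 1103.5 in contusion and 444.8, 772.8 and 1324.7 in BSO. The groups overlapped, and the effect was −1.93 ± 0.70 (adjusted p = 1 by limma). A second Cp probe set had −1.24 ± 0.47 and the third 0.37 ± 0.35. The red cell anion exchanger gene Slc4a1 had −1.43 ± 0.61 and 0.73 ± 0.62 on its 2 probe sets.

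With no gene past the threshold, the 10 smallest p in each direction are given as values, and their direction is what selected them. All 20 genes had the same sign without and with BSO, and 17 had unadjusted p under 0.05 in both, which the selection on the joint effect favours. Only 5 of the 20 belong to the brighter probe sets. In 9 of the 20 the 6 and the 5 arrays did not overlap, beside 0.248% of all probe sets, which the choice by smallest p of the same contrast also favours and from which nothing is read.

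Bex1, whose small adaptor protein signals downstream of the neurotrophin receptor p75, had the smallest p of the genes that stood higher. It read 163.2, 92.9 and 197.9 in tempol and 156.5, 135.3 and 126.1 in tempol&BSO. It read 10 and 37.4 in contusion, and 49.8, 21.3 and 29.4 in BSO. The groups did not overlap, the effect was 2.48 ± 0.42 (5.57-fold, adjusted p = 0.676 by limma), and the 6 uninjured arrays ran from 26 to 192.1 with a median of 143.65. Sqstm1 makes p62, the receptor that brings ubiquitinated cargo to autophagy and a partner of the NRF2 repressor KEAP1. One of its 4 probe sets read 185.2, 266.2 and 294.6 in tempol and 101.2, 243.7 and 447.5 in tempol&BSO, against 62.3 and 37.5 in contusion and 65.3, 59.1 and 49.7 in BSO. These groups did not overlap either (2.12 ± 0.40, adjusted p = 1), but the gene's other 3 probe sets had −0.59, 0.03 and 0.47, the second of them being the brightest.

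Aldh3a1, which oxidizes aldehydes formed in lipid peroxidation, read 84 to 250.8 in the 6 tempol arrays (median 204.8) and 42.7 to 88 in the other 5 (median 56.7). Only tempol 1 lay within the range of the arrays without tempol, and the effect was 1.62 ± 0.37 (adjusted p = 1 by limma). The uninjured arrays ran from 112.6 to 318. Twist1, a transcription factor of mesenchymal cells, had 1.97 ± 0.40 on 1 probe set and 1.61 ± 0.58 on the other, both dim. It was the only leading gene whose further probe set had unadjusted p under 0.05. The others were Trhde, which degrades thyrotropin-releasing hormone (2.65 ± 0.50), Ufl1, the ligase that attaches the modifier UFM1 (2.83 ± 0.57), and Azi2, an adaptor of the kinase TBK1 (2.36 ± 0.48). Ammecr1l (2.19 ± 0.50), Vps37b, a subunit of the endosomal sorting complex ESCRT-I (1.97 ± 0.47), and the ring finger gene Rnf151 (1.81 ± 0.40) completed them. Brighter probe sets of the same genes had −0.41 for Ufl1, −0.35 and −0.10 for Ammecr1l, −0.12 for Vps37b and 0.23 for Rnf151. Dimmer ones had 0.94 and −0.34 for Azi2 and −0.79 for Vps37b. Without tempol the leading probe sets of Trhde (5.1 to 29.1), Ufl1 (6.6 to 17) and Ammecr1l (4.2 to 32.4) were dim.

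Clstn3 had the smallest p of all named genes. Its product, calsyntenin 3, is an adhesion protein of the postsynaptic membrane. It read 66.8, 79.1 and 48.5 in tempol and 20, 39.4 and 115.8 in tempol&BSO. It read 505.1 and 320.5 in contusion, and 390.1, 392.4 and 317.4 in BSO. Every tempol array lay below every array without tempol, the effect was −2.86 ± 0.43 (adjusted p = 0.477 by limma), and uninjured cord ran from 77.9 to 875.4. B9d1, a protein of the gate at the base of cilia, read 81.1 to 191.9 with tempol and 228.9 to 742.1 without, again without overlap (−1.83 ± 0.40, adjusted p = 1 by limma). A probe set with no gene symbol read 9.9 to 38.2 with tempol and 53.2 to 198.7 without, with an effect of −2.20 ± 0.34 (adjusted p = 0.477 by limma).

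The cell cycle genes Cdt1, which licenses replication origins (−2.09 ± 0.46), and Rbl2, a pocket protein related to the retinoblastoma protein (−1.67 ± 0.43), stood among the lower genes, and neither belongs to the cell cycle list described below. Mmp9, the gelatinase that neutrophils release and that opens the blood-spinal cord barrier, read 6.8 to 14.5 with tempol and 12.9 to 89.8 without on 1 probe set (−1.78 ± 0.47, adjusted p = 1 by limma). Its brighter probe set had 0.10 ± 0.50, so the direction differs between the probe sets. The remaining lower genes were Ampd2, an AMP deaminase (−1.69 ± 0.43), the zinc finger gene Prdm2 (−1.40 ± 0.36), the PDZ domain gene Tax1bp3 (−2.11 ± 0.50), the sperm mitochondrial gene Smcp (−2.14 ± 0.49) and the cystatin domain gene Cstdc1 (−2.62 ± 0.60). Of the 20 leading genes 11 have further probe sets, 21 in all, of which 10 point the same way and 1 has unadjusted p under 0.05. With the mean of a gene's probe sets in place of the single one, 10 of these 11 effects moved by over 1.5 times, all toward 0. At the low end they came to 0.36 for Vps37b, 0.51 for Sqstm1, 0.58 for Ammecr1l, −0.30 for Prdm2 and −0.68 for Tax1bp3. With log2 of signal plus 32, which shrinks dim values, 11 of the 20 moved by over 1.5 times toward 0, Bex1 to 1.54 and Mmp9 to −0.66. Set beside uninjured cord, the median with tempol lay nearer the uninjured median than the median without tempol in 10 of the 20.

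**Figure D4:**
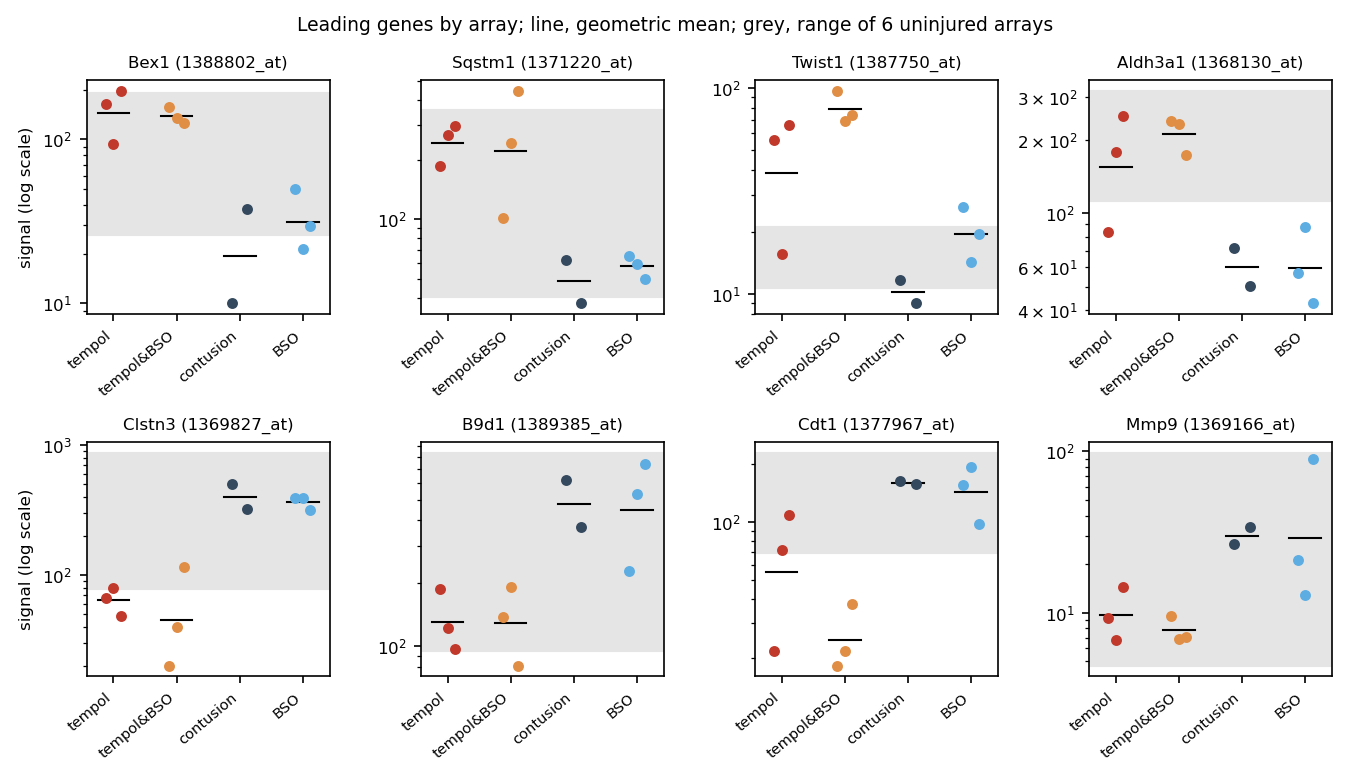
Signal (log axis) of 8 leading genes in each of the 11 arrays, by group, with lines at the geometric means and a grey band over the range of the 6 uninjured arrays. Bex1 and Sqstm1 separate upward with tempol and Clstn3 and B9d1 downward, while Aldh3a1, Twist1, Cdt1 and Mmp9 overlap by single arrays.

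Beyond single genes, 45 lists of pathways and cell types were described by their counts. Of 715 list genes measured, 359 (50.2%) lay above 0, beside 50.1% of all 14217 genes, 0 passed the adjusted p by limma, and 15 (2.1%) had unadjusted p under 0.05, beside 3.08% of all genes. Of these 15, 5 stood higher, where 1.67% of all genes did, and 10 lower, where 1.41% did. The higher ones were Igf2, Creld2, Car9, Diablo and Grin1, and the lower ones Gstm1, Cp, Slc4a1, Postn, Gadd45b, Ccnb2, Nkx2-2, Cxcr1, Tek and Tmem212. The list medians without and with BSO had the same sign in 14 of 45 lists. Under the 22 alternatives run, the sign of the median held throughout in 12 lists. The alternatives reuse the same arrays, so a kept sign adds no independent support. Of these 12, the cell cycle, neurotransmitter receptor, NF-kB feedback and glucocorticoid lists had medians of opposite sign without and with BSO. For all 45 lists the counts and medians are given as values, and no direction is read from them.

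Inflammation genes gave no called member. The cytokine and chemokine list had 13 of 26 genes above 0 (median 0.03). Ccl2, the monocyte attractant, read 612.5 to 4024.8 with tempol and 1454.9 to 2988.2 without, all above the uninjured 23.2 to 502.7, with an effect of −0.09 ± 0.43 (interval −1.03 to 0.85). Cxcl11, an attractant of T cells (0.70 ± 0.34), and Osm, a cytokine of the interleukin 6 family (−1.02 ± 0.54), had the smallest p. NF-kB feedback and toll-like receptor genes had 12 of 19 above 0 and a median of 0.16. It was 0.088 with the GAPDH end ratio as a covariate and 0.331 without contusion 1. That median was −0.02 without BSO and 0.43 with it. The inhibitor gene Tnip1 had 0.63 ± 0.31. The RNase gene Zc3h12a had 0.87 ± 0.58, but its effect was −0.76 without BSO and 2.18 with it. The interferon list had 7 of 21 above 0, the complement list 6 of 12. Maff, a small Maf factor and partner of NRF2, was the only 1 of 20 immediate early genes without overlap, beside 0.211% of all genes, at 76.8 to 208.8 with tempol and 213.1 to 237.9 without (−0.55 ± 0.34).

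No leukocyte marker passed the adjusted p. Macrophage genes had 6 of 17 above 0, neutrophil genes 7 of 12, microglia genes 7 of 12 and lymphocyte genes 5 of 15. The neutrophil receptor gene Cxcr1 (−1.004 ± 0.44) and the macrophage mannose receptor gene Mrc1 (0.86 ± 0.42) had the smallest p of their lists, and Aif1, the ionized calcium-binding adaptor of microglia, had −0.60 ± 0.41. Timp1, the inhibitor of matrix metalloproteinases, read 3290.5 to 10258.2 with tempol and 3366.1 to 10060.8 without (−0.10 ± 0.45, interval −1.08 to 0.87). Matrix proteases and their inhibitors had 13 of 19 above 0 (median 0.08), and collagens and matrix proteins 9 of 23, with Postn, a matrix protein of healing tissue, at −1.02 ± 0.46.

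Among stress, damage and cell cycle genes, unadjusted p was under 0.05 in 0 of 12 heat shock, 1 of 20 unfolded protein response, 1 of 20 hypoxia, 1 of 20 apoptosis, 1 of 16 DNA damage and 1 of 29 cell cycle genes, near the 3.08% of all genes. Heat shock genes had 9 of 12 above 0 with a median of 0.20, but 0.02 without BSO, 0.40 with it and 0.045 with the mean of each gene's probe sets. The small chaperone genes Cryab (0.43 ± 0.29) and Hspb8 (−0.42 ± 0.30) had the smallest p. Among the unfolded protein response genes, 10 of 20 above 0, Creld2 had 1.05 ± 0.41. Of the hypoxia genes, 9 of 20 above 0, the carbonic anhydrase gene Car9 had 1.17 ± 0.45. Diablo, the mitochondrial protein that releases caspases from their inhibitors, read 1803.5, 1680.3 and 1412.8 in tempol and 957.6, 831.5 and 1135.9 in tempol&BSO. It read 960.9 and 643.2 in contusion, and 710.4, 602.7 and 764.8 in BSO. Contusion 1 reached into the tempol&BSO range, and the effect was 0.74 ± 0.29 (adjusted p = 1 by limma). The damage gene Gadd45b had −1.65 ± 0.62 on a dim probe set. Cell cycle genes had 10 of 29 above 0 (median −0.10, but −0.353 without BSO and 0.04 with it). The mitotic cyclin gene Ccnb2 had −0.77 ± 0.33 and the helicase subunit gene Mcm3 0.67 ± 0.32.

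Housekeeping and metabolic lists held none. Cytosolic ribosomal protein genes had effects from −0.22 to 0.19 (4 of 15 above 0), proteasome subunits from −0.28 to 0.57 (13 of 23) and oxidative phosphorylation genes from −0.49 to 0.78 (13 of 23, highest Ndufv1 of complex I). Cholesterol synthesis had 12 of 15 above 0 (median 0.14, from 0.093 without contusion 1 to 0.313 without tempol&BSO 3), with effects of 0.83 ± 0.47 for Fdps, an enzyme of the pathway, and 1.14 ± 0.74 for Insig1, which senses sterols. Among growth factors, 13 of 23 above 0, Igf2 had the smallest p of any list gene apart from Nkx2-2. Its brightest probe set read 657.6, 955 and 825.6 in tempol and 244.3, 764.6 and 470.5 in tempol&BSO, against 170.3 and 684 in contusion and 110.6, 65.6 and 266.8 in BSO. The effect was 1.57 ± 0.49 (adjusted p = 1 by limma), while its other 3 probe sets had 0.21, −0.28 and 0.56.

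Neuron markers gave the largest median among the lists with more than 10 genes measured. Of 25 genes 20 lay above 0, with a median of 0.36 (0.002 over all 14217 genes), and 0 had unadjusted p under 0.05. The mean log2 signal of the list was 8.76, 8.76 and 9.04 in tempol and 9.02, 8.89 and 8.82 in tempol&BSO. It was 8.35 and 8.64 in contusion, and 8.68, 8.82 and 8.80 in BSO. Of the tempol arrays tempol 1, tempol 2 and tempol&BSO 3 lay within the range of the other 5, and all 11 lay below the lowest of the 6 uninjured arrays (8.97) except tempol 3 and tempol&BSO 1. The list median was 0.39 without BSO and 0.12 with it, and without contusion 1, the lowest array, the joint median was 0.19. The smallest p of the list belonged to the axonal neurofilament gene Nefl (0.69 ± 0.38), above 0, and the inhibitory enzyme gene Gad2 (−1.15 ± 0.73), below. In whole tissue, fewer cells of a type and less RNA per cell cannot be told apart.

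Among glial genes none passed. Oligodendrocyte and myelin genes had 8 of 18 above 0 (median −0.03), with Mbp at −0.02 ± 0.37 and the myelin surface gene Mog at −0.41 ± 0.29. Nkx2-2, a transcription factor of oligodendrocyte progenitors, had the smallest p of the list genes. It read 72.2, 197.2 and 175.1 in tempol and 69.6, 42.5 and 69.3 in tempol&BSO, against 275.9 and 189.1 in contusion and 142.2, 204.1 and 176.4 in BSO. Tempol 2 and tempol 3 overlapped with the arrays without tempol, and the effect was −1.19 ± 0.37 (adjusted p = 1 by limma). Olig2, which precedes it in the lineage, had −0.72 ± 0.44 on its brighter probe set, 0.68 on the other and −0.02 with their mean. The list of progenitor genes had 4 of 11 above 0. Astrocyte genes had 7 of 14 and reactive astrocyte genes 7 of 18 above 0, with Gfap at −0.01 ± 0.30 (interval −0.66 to 0.64). The glutamate transporter gene Slc1a2 had −1.62 ± 0.88, with −3.54 without BSO and −0.09 with it.

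Receptors, channels, vessels and surrounding tissue were described in the same way. The NMDA receptor subunit gene Grin1 had 1.02 ± 0.45 in a receptor list with 13 of 29 above 0. The median of that list was −0.103, but 0.265 without BSO and −0.308 with it. The channel list had 14 of 23 above 0. Endothelial genes had 12 of 18 above 0, with the angiopoietin receptor gene Tek at −1.12 ± 0.49. Pericyte and smooth muscle genes had 7 of 12, and fibroblast and meningeal genes 10 of 14 (median 0.15, from 0.088 without tempol 3 to 0.232 without tempol&BSO 3). The ependymal list had the lowest median of all, −0.53 over 7 genes, with 3 above 0. Tmem212 had −1.30 ± 0.60 on its brighter probe set, 0.88 on the other and −0.21 with their mean. The mean level of the list ran from 5.37 to 7.07 with tempol and from 6.40 to 7.29 without, so the arrays overlapped. Skeletal muscle (7 of 14), adipose (5 of 7) and Schwann cell and dorsal root genes (6 of 10) had overlapping mean levels. Glucocorticoid-responsive genes had 10 of 15 above 0 (median 0.13, but −0.20 without BSO and 0.34 with it). Lipid uptake and lysosome genes had 6 of 19 above 0 (median −0.145, −0.25 without BSO and −0.13 with it).

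**Figure D5:**
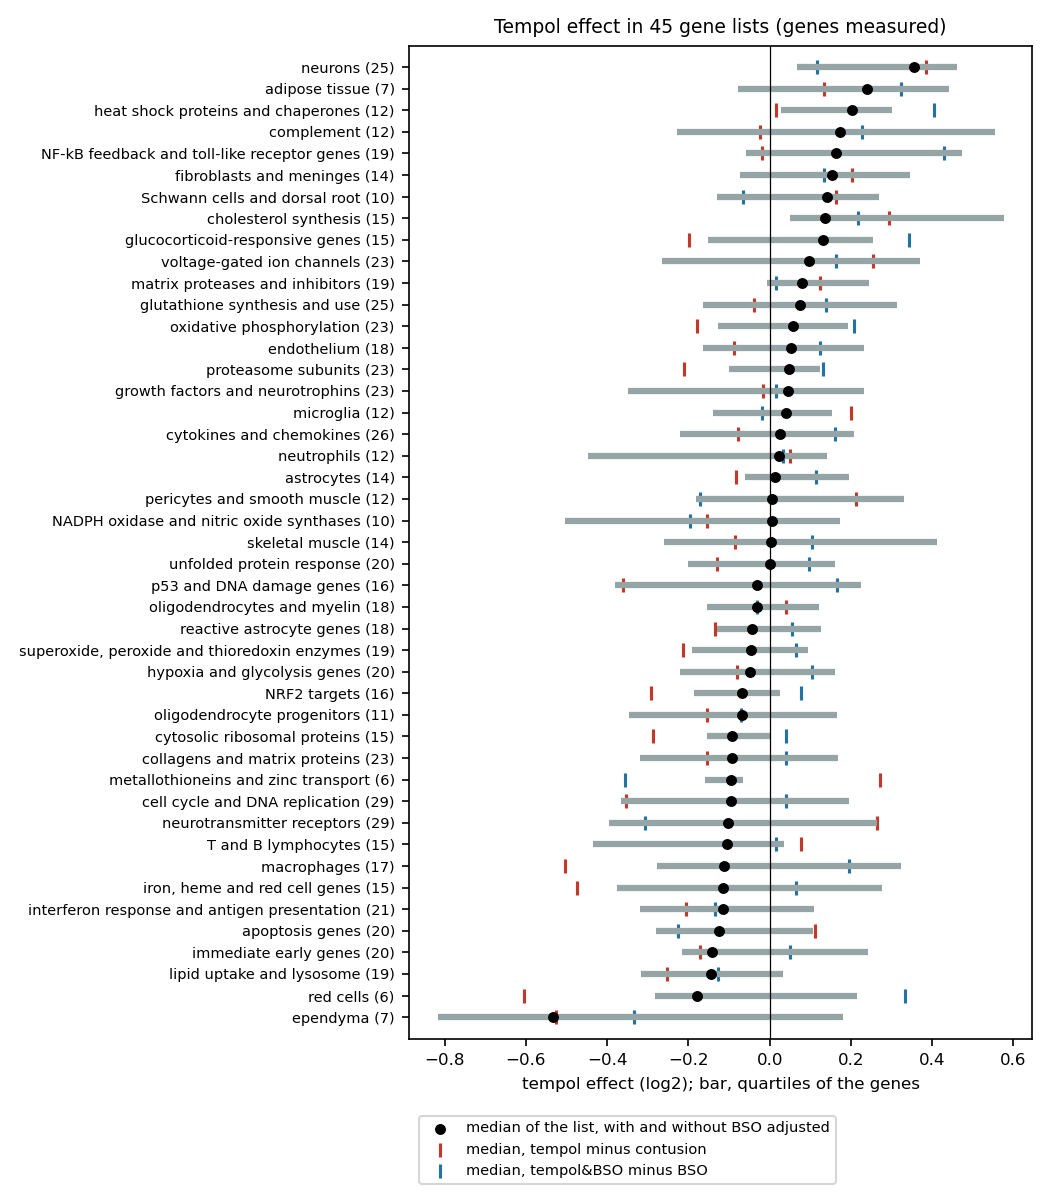
Median tempol effect (black points, log2) and quartiles of the genes (grey bars) for 45 gene lists, with the medians of tempol minus contusion (red ticks) and of tempol&BSO minus BSO (blue ticks). Medians run from −0.53 (ependyma, 7 genes) to 0.36 (neurons, 25 genes), and red and blue ticks lie on the same side of 0 in 14 of 45 lists.

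Whether the tempol difference itself depends on BSO was tested as an interaction. No probe set passed (0% called by limma, smallest adjusted p 0.809), and 1153 had unadjusted p under 0.05 (3.71%; 1.84% above 0 and 1.87% below). The median standard error was 0.948, so an interaction had to be larger than a main effect to be seen. Alox15, the lipoxygenase that oxidizes arachidonic and linoleic acid, had the smallest p among named genes. It read 51.6, 47 and 43.4 in tempol and 249.8 and 161.1 in contusion, but 212.2, 119 and 214.4 in tempol&BSO and 65.2, 39 and 41.3 in BSO. Tempol stood lower than contusion (−2.09) and tempol&BSO higher than BSO (1.90), an interaction of 3.98 ± 0.66 (adjusted p = 0.809 by limma). The ubiquitin ligase subunit gene Fbxo3 (−1.23 without BSO and 2.59 with it) and Ccdc86 (−2.20 and 1.93) had the same form. The phospholipid flippase gene Atp8a2 had the opposite one (2.60 and −1.63), and the lysosomal transporter gene Spns1 had −3.06 without BSO and 0.15 with it.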

How the data were processed

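Rat spinal cord was profiled on 22 arrays, and 11 were used here. The deposited values are linear signal intensities. RMA is named in the submitters' processing notes, yet the table is not on a log scale and its arrays do not share 1 distribution: they share a trimmed mean of 250 (2% cut at both ends). Detection calls and scan batches are not given in the sources used here, and depth does not apply to arrays. The precision depends on the number of arrays and on how much they vary. Of 31099 probe sets 57 controls were left out. In the platform annotation 20826 of the 31042 tested probe sets have a single symbol, 436 more than that, and 9780 are unnamed.

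The log2 signal was fitted with limma 3.58.1 (R 4.3.3) on tempol and BSO terms (8 residual and 4.244 prior degrees of freedom). The interaction and the effects without and with BSO came from a fit of 4 group means. P-values are two-sided, adjusted by Benjamini-Hochberg over all probe sets, with a threshold of 0.05. Values after ± are standard errors. In lists, each gene is its brightest probe set (14217 genes). The script was tested on simulated data.

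Genes were named by rule: the 10 smallest p per direction where fewer passed, the 2 smallest p in each list, a set of 22 redox and injury genes, and the 5 smallest interaction p. Of 810 list genes 715 were measured. Members, lists and rule were chosen with earlier results of these data known. Same-numbered replicates did not deviate together (15 pairs, r from −0.20 to 0.198, 2 over 0.1), so numbers were not treated as pairs. Alternatives were quantile normalization, a signal filter, log2 of signal plus 32, eBayes with trend and robust settings, all 22 arrays, averaged group effects, no BSO term, array weights, replicate numbers, mean of a gene's probe sets and each array left out. The GAPDH end ratio as a covariate was added after the data were seen.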

Additional observations from a re-analysis of the deposited data

Results flagged for a closer look

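In the named genes, 252 groups of 5 or 6 arrays were checked for an array far from the rest. The measure was the gap to its nearest neighbour over the range, both in log2, whereas the signals below are linear. In all, 16 were found. A chance rate of about 1 in 20 was assumed and was not measured on these data. Contusion 2 accounts for 4 of them, tempol 1 and tempol 2 for 3 each.

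With tempol, tempol 2 was lowest for Twist1 (15.6, next 55.8, ratio 0.698), Insig1 (30.2, next 207.5, ratio 0.797) and Gpx1 (644.3, next 931.8, ratio 0.634). Tempol 1 was lowest for Aldh3a1 (84, next 172.4, ratio 0.657), Prdm2 (38.5, next 115.2, ratio 0.743) and Lep (73.1, next 186.8, ratio 0.698). Tempol&BSO 1 was lowest for C5ar1 (137.8, next 406.1, ratio 0.676) and Mt1 (32.5, next 133.4, ratio 0.642), and tempol&BSO 2 highest for Per1 (309.2, next 136.1, ratio 0.674).

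Without tempol, contusion 2 was lowest for Sesn1 (18.8, next 144.6, ratio 0.774), Ccnb2 (185.6, next 265.6, ratio 0.79), Per1 (57.7, next 96.9, ratio 0.763) and Tac1 (78.7, next 238.3, ratio 0.71). Contusion 1 was lowest for Cd4 (102.1, next 244.4, ratio 0.743), BSO 1 for Sod1 (50.5, next 627.3, ratio 0.918), and BSO 3 highest for Txnip (978, next 397.3, ratio 0.712).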

How the results depend on the processing

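The count of probe sets past an adjusted p of 0.05 was 0 in all 22 alternatives for the tempol effect and in all 20 run for the interaction and for the effects without and with BSO. The smallest adjusted p of the tempol effect ran from 0.0864 (Clstn3, log2 of signal plus 32) to 1, and was 0.101 for Clstn3 without tempol&BSO 3. With replicate numbers as a block, 0 passed and 3.93% had unadjusted p under 0.05, against 3.21% to 4.37% over all alternatives. The effect of Clstn3 ran from −3.18 to −2.23, of Bex1 from 1.54 to 2.71. The 20 leading genes kept their sign in every alternative that could hold them, but their size was less stable. With the mean of a gene's probe sets it moved by over 1.5 times in 10 of the 11 that have further probe sets (Vps37b 0.357, Prdm2 −0.297). With log2 of signal plus 32 it did so in 11 of the 20 (Trhde 1.14, Cstdc1 −1.12), and under the other alternatives in none. Of 2720 values of 126 named genes, 62 changed sign, all in 18 genes that are not among the leading 20, among them Nos2, Gfap, Mbp, Gclc, Sod1 and Srxn1. With each array left out, list medians ran from −0.086 (without tempol&BSO 1) to 0.085 for cytokines and chemokines, 0.092 to 0.331 (without contusion 1; 0.299 without tempol 2) for NF-kB feedback genes, 0.186 (without contusion 1) to 0.401 for neurons and −0.255 to 0.191 (without contusion 2) for red cell genes. The cause was not tested. With the brighter probe sets alone, which drops members, the medians were −0.185 for complement and −0.324 for lymphocytes. Only 5 of the 20 leading genes are among the brighter probe sets, whose median standard error was 0.392, against 0.552 for the dimmer ones.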
